A study of Gallus gallus with 9 samples.

Results

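YAP and TAZ are the transcription coactivators at the end of the Hippo pathway, and the genes described here are those of both coactivators, of TEAD factors they bind and of genes they are known to switch on. In the chicken table they were the 10 rows with the symbols YAP1, WWTR1 (the gene for TAZ), TEAD1, TEAD4, LATS2, ANKRD1, CTGF (also written CCN2), CYR61 (also written CCN1), AMOTL1 and AMOTL2. All 10 were found among the 15294 genes of the table, and each stood above 1 FPKM in all 9 libraries, so none entered the tests through a single group. FPKM is the number of fragments scaled by transcript length and by library size, so levels can be compared between genes.

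The RNA came from DF-1 cells, an immortalised, wild-type line of chicken fibroblasts derived from embryos. The series follows these cells on their way from growth on a surface to free suspension, and labels its groups 3D_L, 3D_E and 2D, with 3 libraries each. Neither E nor L is spelled out, so the label names are kept, and the labels give no culture time, agent or medium for a group. All libraries are of 1 cell line, and nothing in the labels says that those of a group came from separate cultures, so each p-value weighs a difference only against how these libraries vary, and that variation may be technical.

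In the Hippo pathway, as worked out mainly in human, mouse and Drosophila cells, the kinases STK3 and STK4 with the scaffold SAV1 activate LATS1 and LATS2, which phosphorylate YAP and TAZ and so keep them out of the nucleus. In spread cells on stiff surfaces YAP and TAZ tend to lie in the nucleus, where they bind TEAD factors on DNA, and rounded or crowded cells tend to hold them in the cytoplasm. CTGF, CYR61 and ANKRD1 are widely used readouts of that binding, while LATS2 and AMOTL2 are targets whose products in turn hold YAP back. Messenger RNA levels do not show where the proteins were or how they were phosphorylated.

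Of 13 fibroblast markers, 12 stood at 1 FPKM or more in every library of each group. The sums of that list were 5672 to 5744 FPKM in 3D_L, 6589 to 7552 in 3D_E and 3265 to 3910 in 2D. VIM, vimentin, was the largest part of them in 3D_L and 3D_E but not in 2D. Its mean was 1899 FPKM in 3D_L, 2581 in 3D_E and 319.9 in 2D. Of 12 tested markers of that list, 6 were higher and 2 lower in 3D_E than in 2D (limma, adjusted p under 0.05). In 3D_L 7 were higher and 3 lower than in 2D. The higher ones are 50% of the list in 3D_E and 58.3% in 3D_L, where 36.1% and 20.3% of all genes were higher. The lower ones are 16.7% and 25%, where 32.1% and 16.2% of all genes were lower. LUM, PRRX1 and PDGFRB were, like VIM, higher in both 3D groups. The collagen genes COL1A1 and COL1A2 were instead lower in both 3D groups than in 2D. They averaged 251.6 and 120.8 FPKM in 3D_L and 472.4 and 213.8 in 3D_E, against 839.5 and 326.0 in 2D. For COL1A1 the libraries of 3D_E overlapped with those of 2D. COL3A1, also on that list, averaged 164.8 FPKM in 3D_L, 259.2 in 3D_E and 236.0 in 2D. Its log2 change against 2D was -0.51 in 3D_L and 0.14 in 3D_E (limma, adjusted p = 0.00225 and 0.211). The marker below 1 FPKM was PDGFRA, a growth factor receptor, with a mean of 0.22 FPKM in 3D_L, 0.107 in 3D_E and 0.05 in 2D. The sums over 7 endothelial markers were 11.8 to 12.5 FPKM in 3D_L, 3.77 to 4.11 in 3D_E and 7.81 to 8.05 in 2D, with the cadherin CDH5 at a mean of 9.83, 1.51 and 6.79 in that order. CLDN5, like CDH5, was lowest in 3D_E, with means of 1.34, 0.513 and 0.857 FPKM in the same order. PECAM1 was instead highest in 3D_E, with means of 0.75, 1.74 and 0.2 FPKM. TEK was listed at 0 in every 3D_L library and KDR in every 2D library. The sums over 6 epithelial markers stayed at or below 1.88 FPKM in every library and those over 6 blood and immune markers at or below 14.3, with CD3E at a mean between 6.49 and 7.45 in each group. Of the same list, CSF1R averaged 0.697 FPKM in 3D_L, 1.93 in 3D_E and 0.26 in 2D, and CD74 averaged 1.37, 1.63 and 2.93 in that order. The part of these marker levels in the results below was not tested. Libraries varied most within 3D_E: the SD of log2(FPKM + 1) over all tested genes (root mean square) was 0.16 in 3D_L, 0.29 in 3D_E and 0.12 in 2D. For all 10 genes replicate 2 of 3D_E lay between replicates 1 and 3, as it did for 79.4% of the 10436 genes tested. YAP1, WWTR1 and LATS2 were highest in replicate 1 of 3D_E and lowest in replicate 3, and the other 7 genes ran the opposite way.

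The level of the 10 genes spanned about 2 orders of magnitude in each group. CTGF and CYR61, secreted proteins of the CCN family that bind integrins, were by far the most abundant, above between 97.3% and 98.6% of the genes tested in every group. In 3D_L and in 3D_E the libraries of CYR61 and CTGF overlapped in level, whereas in 2D every library had more CTGF than the highest library of CYR61. The other genes stood between 3.25 and 48.3 FPKM on average. In 3D_L the order was AMOTL2, AMOTL1, WWTR1, TEAD1, YAP1, TEAD4, LATS2 and ANKRD1, and neighbours overlapped from AMOTL1 to TEAD1 and between YAP1 and TEAD4. In 3D_E it was AMOTL2, ANKRD1, TEAD1, AMOTL1, WWTR1, TEAD4, LATS2 and YAP1, with neighbours overlapping from AMOTL2 to WWTR1 and between LATS2 and YAP1. In 2D it was AMOTL2, TEAD1, AMOTL1, YAP1, TEAD4, WWTR1, LATS2 and ANKRD1, and neighbours overlapped from AMOTL1 to TEAD4.

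**Figure D1:**
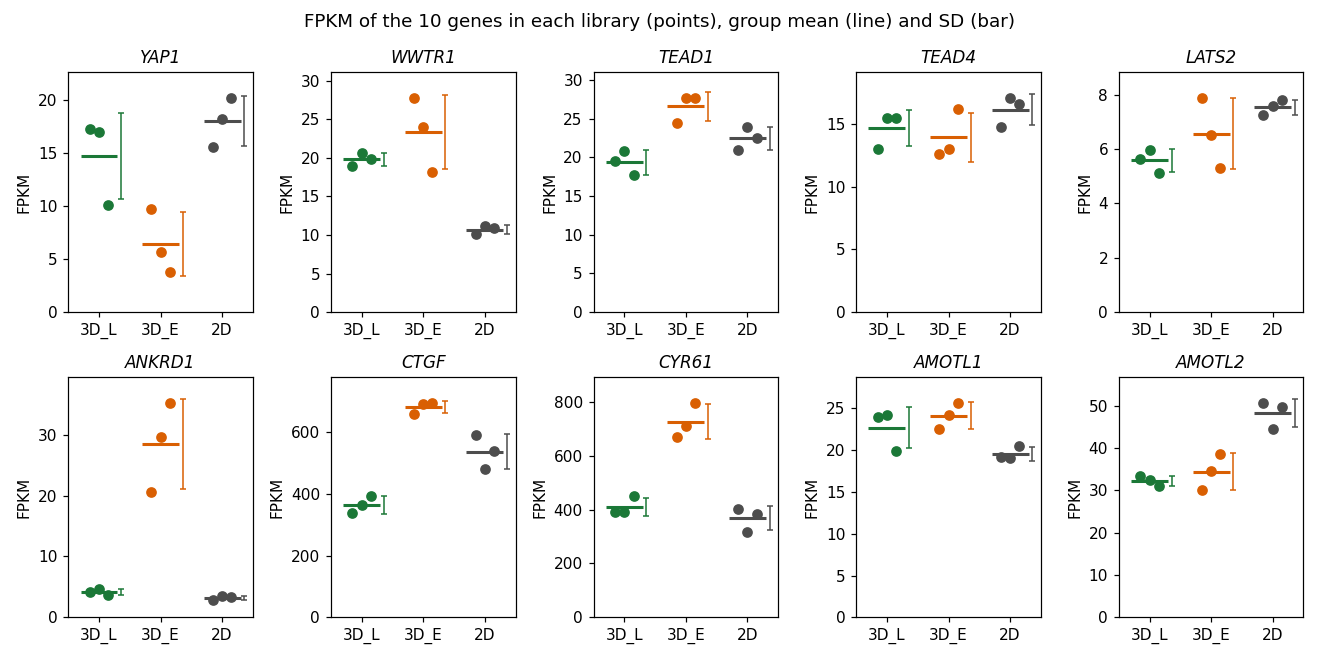
FPKM of each of the 10 genes, on linear axes from 0, in 3D_L, 3D_E and 2D. Points are libraries, lines are group means and bars beside them are SDs (n = 3). ANKRD1 stood between 20.62 and 35.22 FPKM in 3D_E and at or below 4.6 in every other library, while YAP1 was at its lowest in 3D_E.

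The coactivators moved in opposite directions in 3D_E. YAP1 (NCBI gene 396171) had 9.78, 5.72 and 3.80 FPKM in 3D_E, against 15.56, 18.22 and 20.26 FPKM in 2D. Every 3D_E library lay below every 2D library. YAP1 averaged 6.43 ± 3.05 FPKM in 3D_E and 18.0 ± 2.36 FPKM in 2D (SD, n = 3 each), a log2 change of -1.43 ± 0.28 (SE; limma, adjusted p = 0.00138). In bulk RNA, fewer cells that express a gene and less of its RNA per cell cannot be told apart. WWTR1 (NCBI gene 100859902) had 27.82, 24.02 and 18.23 FPKM in 3D_E, against 10.08, 11.13 and 10.87 FPKM in 2D. All 3D_E libraries were above those of 2D, with a fold of 2.18 between the means and a log2 change of 1.04 ± 0.14 (SE; limma, adjusted p = 8.97e-05). Both calls held in all 18 alternatives, with a log2 change between -1.74 and -1.04 for YAP1 and between 0.84 and 1.20 for WWTR1.

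In 3D_L, WWTR1 was again above 2D and YAP1 was not distinguishable from it. WWTR1 had 19.0, 20.59 and 19.82 FPKM in 3D_L, so that no library overlapped with 2D (log2 change 0.83 ± 0.14, SE; limma, adjusted p = 0.00115). YAP1 had 17.29, 16.97 and 10.08 FPKM in 3D_L, and replicate 3 alone lay below the 2D range. Its log2 change against 2D was -0.30 with a 95% interval from -0.93 to 0.34 (limma, adjusted p = 0.447). Within 3D_L, YAP1 varied more than 98.5% of the genes tested, by a factor of 1.72 between its highest and lowest library. Between 3D_L and 3D_E it was YAP1 that differed, higher in 3D_L by 1.13 ± 0.28 on the log2 scale (SE; limma, adjusted p = 0.00822). For WWTR1 that difference was -0.21 with an interval from -0.51 to 0.10, and it was called in 1 of 18 alternatives, the one without replicate 3 of 3D_E (-0.08 to -0.37 over all alternatives).

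The share of WWTR1 among the coactivator transcripts was separate in each group, while their sum was not. YAP1 and WWTR1 together gave 29.9 to 37.6 FPKM in 3D_L, 22.0 to 37.6 in 3D_E and 25.6 to 31.1 in 2D, and these ranges overlapped. WWTR1 made up 52.4%, 54.8% and 66.3% of that sum in the 3D_L libraries and 74.0%, 80.8% and 82.8% in the 3D_E libraries, against 39.3%, 37.9% and 34.9% in 2D. No groups overlapped in this share, which is taken within a library and so does not depend on the scaling between libraries. YAP1 was the more abundant transcript in all 2D libraries and WWTR1 in all libraries of 3D_L and 3D_E. Shares and ratios of genes within a library are given here and below as a description, with no test.

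The TEAD factors carry the DNA-binding domain that YAP and TAZ lack. TEAD1 (NCBI gene 403089) had 19.55, 20.81 and 17.66 FPKM in 3D_L, 24.42, 27.66 and 27.71 in 3D_E and 20.98, 23.85 and 22.47 in 2D. It was lower in 3D_L than in 3D_E by a log2 change of -0.44 ± 0.10 (SE; limma, adjusted p = 0.00409), and did not pass the threshold in 3D_E against 2D (0.24, adjusted p = 0.0523) or in 3D_L against 2D (-0.21, adjusted p = 0.126). The libraries did not overlap in any of these comparisons. TEAD4 (NCBI gene 395542) stood at 14.7 ± 1.43 FPKM in 3D_L, 13.9 ± 1.94 in 3D_E and 16.1 in 2D (14.74 to 17.11), with overlapping libraries in each comparison and no call. Its 95% intervals ran from -0.47 to 0.06 in 3D_E against 2D, from -0.40 to 0.13 in 3D_L against 2D and from -0.19 to 0.34 in 3D_L against 3D_E. In 3D_E against 2D, TEAD1 was called as higher in 4 of 18 alternatives and TEAD4 as lower in 3, quantile normalization among both. TEAD1 in 3D_L against 2D was called as lower in 2, with median scaling and with a spread for each group.

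A related factor, TEAD3 (NCBI gene 395810), was the TEAD gene with the clearest change. It had 37.46, 47.85 and 54.83 FPKM in 3D_E, against 23.95, 19.94 and 23.13 in 2D, a log2 change of 1.02 ± 0.13 (SE; limma, adjusted p = 9.66e-05). In 3D_L it had 26.15, 24.79 and 26.40 FPKM, lower than in 3D_E by a log2 change of -0.82 (limma, adjusted p = 0.000843) and not called against 2D (0.20, adjusted p = 0.27). TEAD1, TEAD3 and TEAD4 summed to 58.7 to 61.1 FPKM in 3D_L, 74.5 to 98.7 in 3D_E and 59.7 to 62.2 in 2D. TEAD3 made up 40.6% to 44.5% of that sum in 3D_L, 50.3% to 55.5% in 3D_E and 32.7% to 40.1% in 2D. The share of TEAD4 was 22.2% to 26.0% in 3D_L, 14.7% to 17.0% in 3D_E and 24.7% to 28.1% in 2D. TEAD2 was looked for by symbol and not found, so it is not part of these sums.

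**Figure D2:**
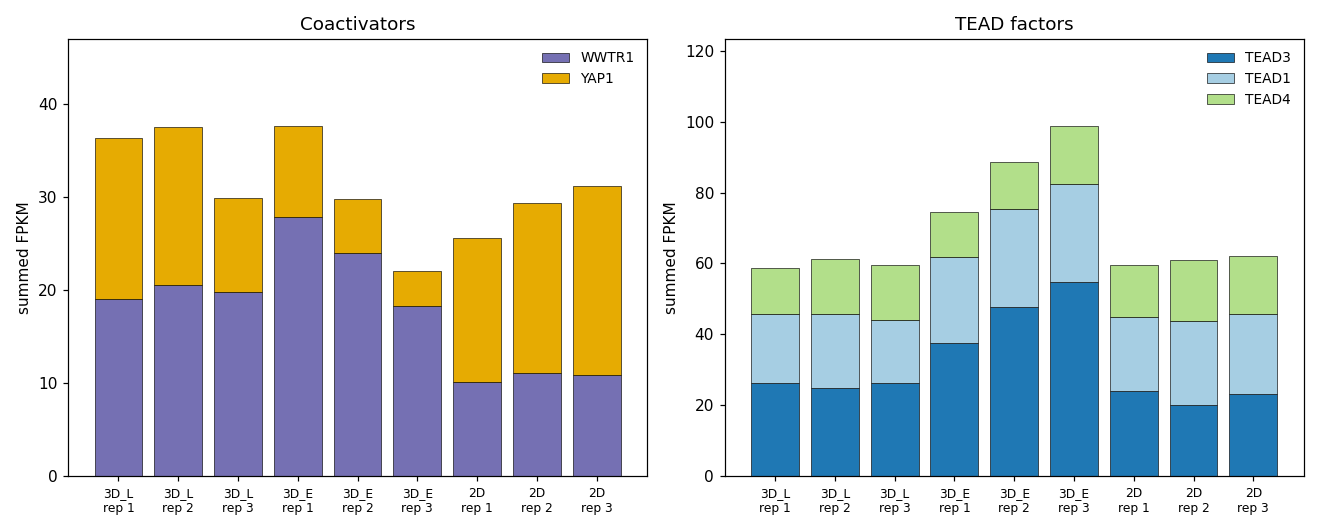
Summed FPKM of WWTR1 and YAP1 (left) and of TEAD3, TEAD1 and TEAD4 (right), with 1 stacked bar per library. WWTR1 held between 74.0% and 82.8% of the coactivator sum in 3D_E, against 34.9% to 39.3% in 2D, and the TEAD sum reached 74.5 to 98.7 FPKM in 3D_E.

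Of the 10 genes, ANKRD1 changed most in 3D_E against 2D and in 3D_L against 3D_E. ANKRD1 (NCBI gene 378926) encodes an ankyrin repeat protein known from heart and skeletal muscle and induced by stretch. It had 20.62, 29.61 and 35.22 FPKM in 3D_E, against 2.90, 3.52 and 3.34 FPKM in 2D. The means of 28.5 ± 7.36 in 3D_E and 3.25 ± 0.319 in 2D (SD, n = 3 each) differed 8.76-fold, a log2 change of 2.76 ± 0.17 (SE; limma, adjusted p = 5.27e-07). In 3D_L its values were 4.15, 4.60 and 3.75 FPKM. These lay above all 2D libraries without a call (0.28, interval from -0.10 to 0.66; limma, adjusted p = 0.229), and below 3D_E by a log2 change of -2.48 ± 0.17 (SE; limma, adjusted p = 2.94e-06). The call against 2D appeared in 3 of 18 alternatives, namely when the spread was taken from these groups alone, with a spread for each group, or without replicate 1 of 3D_E. The 8 muscle markers found, among them MYOD1, DES and TNNT2, summed to 0.11 to 0.33 FPKM in 3D_L, 0.17 to 0.35 in 3D_E and 0.03 to 0.11 in 2D. MYOG, MYF5, NKX2-5 and MYL2 were not found. DES, ACTC1, TNNT2, TNNI1 and RYR2 were listed at 0 in every 3D_E library, and TNNT2 and RYR2 also in every 2D library. ACTA1 instead had 0.15, 0.30 and 0.06 FPKM in 3D_E and was listed at 0 in every library of 3D_L and 2D. MYH7 averaged 0.0467 FPKM in 3D_E and 0.0133 in both 3D_L and 2D.

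CYR61 and CTGF were both higher in 3D_E than in 2D, by unequal amounts. CYR61 (NCBI gene 429089) had 668.42, 710.59 and 795.34 FPKM in 3D_E, against 403.11, 317.19 and 384.0 FPKM in 2D, a fold of 1.97 and a log2 change of 0.98 ± 0.12 (SE; limma, adjusted p = 6.08e-05). CTGF (NCBI gene 374135) had 658.71, 692.39 and 695.86 FPKM in 3D_E, against 593.12, 480.19 and 539.4 FPKM in 2D, a fold of 1.27 and a log2 change of 0.35 ± 0.11 (SE; limma, adjusted p = 0.0143). In neither gene did the groups overlap. The call for CTGF was lost with median scaling, with a spread for each group, without replicate 2 of 2D and without replicate 2 of 3D_E (highest adjusted p = 0.068), and that for CYR61 in none of 18 alternatives.

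In 3D_L the CCN genes parted. CTGF, with 337.13, 363.32 and 394.56 FPKM in 3D_L, fell below every 2D library (log2 change -0.56 ± 0.11, SE; limma, adjusted p = 0.00283). CYR61, with 390.28, 389.86 and 448.36 FPKM in 3D_L, overlapped with 2D and did not pass the threshold (0.16, interval from -0.11 to 0.43; limma, adjusted p = 0.339). Both were lower in 3D_L than in 3D_E, with log2 changes of -0.90 for CTGF (limma, adjusted p = 0.000101) and -0.82 for CYR61 (adjusted p = 0.000424). The ratio of CYR61 to CTGF within a library was 1.16, 1.07 and 1.14 in 3D_L and 1.01, 1.03 and 1.14 in 3D_E, against 0.680, 0.661 and 0.712 in 2D. It was thus above 1 in all libraries of 3D_L and 3D_E and below 1 in all 2D libraries, and the sum of both transcripts was 727.4 to 842.9 FPKM in 3D_L, 1327 to 1491 in 3D_E and 797.4 to 996.2 in 2D.

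Of the angiomotin-like genes, whose products tether YAP at cell junctions and actin filaments, AMOTL2 (NCBI gene 424863) fell in both 3D groups. It had 33.42, 32.38 and 31.09 FPKM in 3D_L and 30.13, 34.50 and 38.72 in 3D_E, against 50.71, 44.48 and 49.70 FPKM in 2D. The log2 change against 2D was -0.56 in 3D_L (limma, adjusted p = 0.00244) and -0.48 in 3D_E (adjusted p = 0.00242), with all libraries below those of 2D. AMOTL1 (NCBI gene 428091) had 22.49, 24.18 and 25.62 FPKM in 3D_E, against 19.19, 18.98 and 20.49 FPKM in 2D, a log2 change of 0.29 ± 0.10 (SE; limma, adjusted p = 0.0261). That call was lost in 7 of 18 alternatives, among them the fit with the replicate block. In 3D_L AMOTL1 stood at 22.7 ± 2.41 FPKM and was not called against 2D (0.20, interval from -0.02 to 0.42). The ratio of AMOTL2 to AMOTL1 was 1.40, 1.34 and 1.56 in 3D_L and 1.34, 1.43 and 1.51 in 3D_E, against 2.64, 2.34 and 2.43 in 2D. Both comparisons rest on the same 2D libraries.

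LATS2 (NCBI gene 418949), like LATS1, encodes a kinase that phosphorylates YAP and TAZ. LATS2 was expressed at 5.65, 5.98 and 5.13 FPKM in 3D_L and at 7.89, 6.50 and 5.29 in 3D_E, against 7.25, 7.57 and 7.79 FPKM in 2D. It was lower in 3D_L than in 2D by a log2 change of -0.38 ± 0.13 (SE; limma, adjusted p = 0.0407), a call that was lost in 9 of 18 alternatives, including every one that left out a library of 2D or 3D_L. In 3D_E, replicate 1 lay above the 2D range and replicates 2 and 3 lay below it. The change of -0.19 was not called (interval from -0.47 to 0.09; limma, adjusted p = 0.203). A call as lower appeared in 2 of 18 alternatives, with quantile normalization and without replicate 1 of 3D_E.

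**Figure D3:**
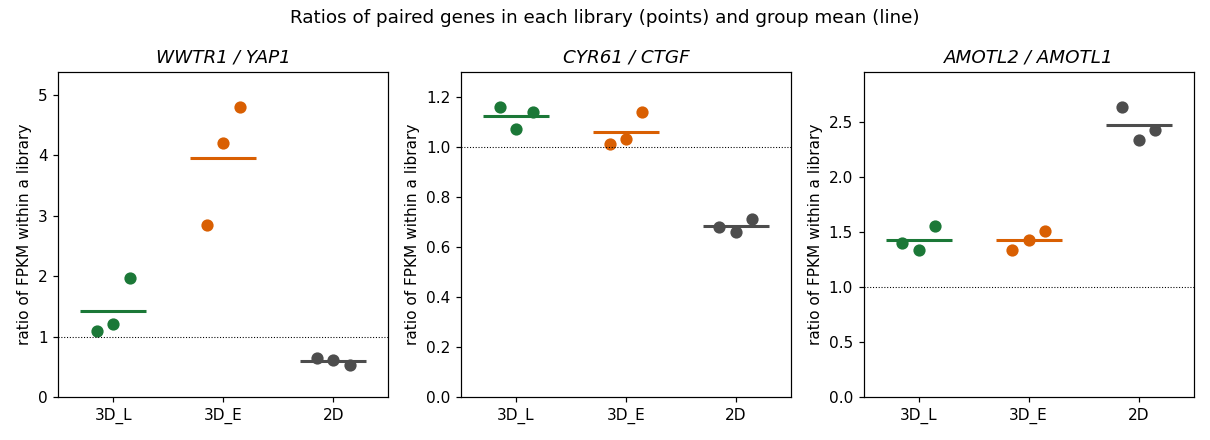
Ratio of FPKM within each library for WWTR1 over YAP1, CYR61 over CTGF and AMOTL2 over AMOTL1, in 3D_L, 3D_E and 2D. Points are libraries and lines are means; the dotted line marks 1. In each ratio the 2D libraries were separate from those of 3D_L and 3D_E.

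Taking the 10 genes by comparison, 5 were higher and 2 lower in 3D_E than in 2D (limma, adjusted p under 0.05), while 68.2% of the 10436 genes tested passed, 36.1% as higher and 32.1% as lower. Quantile normalization gave 6 higher and 4 lower, and median scaling 3 and 3. In 3D_L against 2D 1 was higher, WWTR1, and 3 were lower, CTGF, AMOTL2 and LATS2, where 36.4% of all genes passed, 20.3% as higher and 16.2% as lower. That split was 2117 genes higher and 1686 lower, and turned to 1604 and 1976 with quantile normalization and to 1729 and 2220 with median scaling. In 3D_L against 3D_E 1 was higher, YAP1, and 4 were lower, ANKRD1, CTGF, CYR61 and TEAD1, where 53.6% of all genes passed, 27.2% as higher and 26.4% as lower. The shares of the 10 genes that passed were thus near those of all genes. The median absolute log2 change of the 10 genes was 0.41, 0.29 and 0.33 in the order of these comparisons, and that of all genes was 0.54, 0.27 and 0.38. The libraries of the groups did not overlap for 8, 6 and 5 of the 10 genes, and for 70.6%, 62.8% and 56.5% of all genes. With a spread for each group the genes called in 3D_L against 2D numbered 7 in place of 4, and all genes called 5839 in place of 3803. In 3D_E against 2D that setting called 5 of the 10 genes in place of 7, and 6622 of all genes in place of 7116. In 3D_L against 3D_E it called 5 of the 10 genes as before, and 4675 of all genes in place of 5591.

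**Figure D4:**
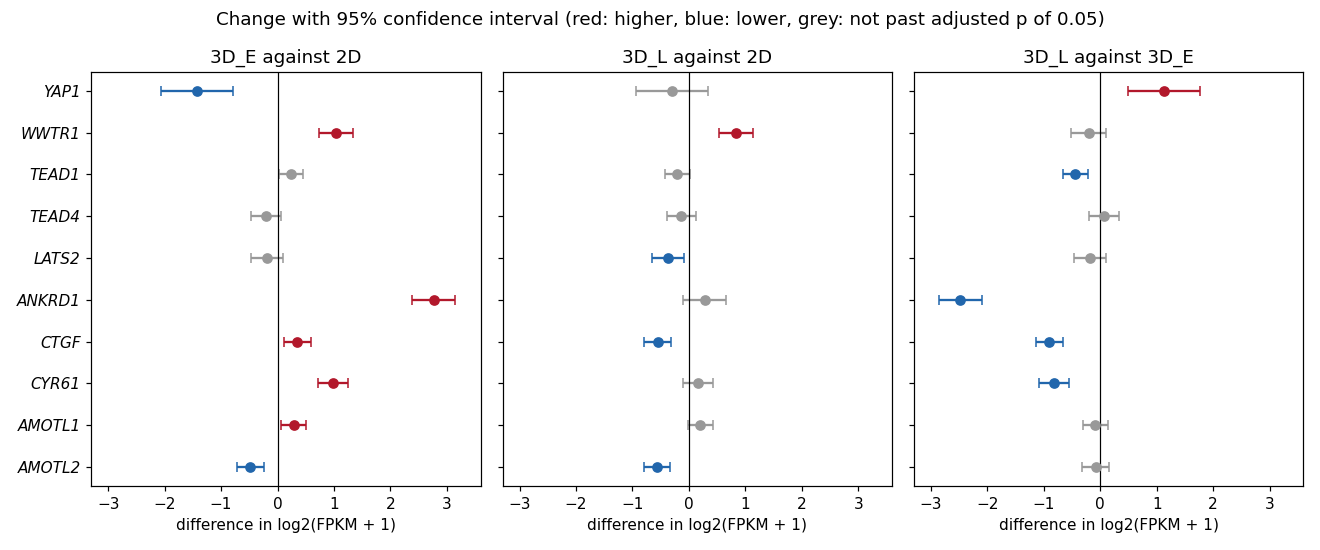
Difference in log2(FPKM + 1) with its 95% confidence interval (limma) for the 10 genes in each comparison, red where higher, blue where lower and grey where the adjusted p did not pass 0.05. YAP1 and WWTR1 changed in opposite directions in 3D_E against 2D, by -1.43 and 1.04.

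For each strongly changed member, the genes with the most similar profile over the 9 libraries are given. Very few of the genes compared were members, so that no member came nearest says little about them. Likeness was measured as the root mean square distance of log2(FPKM + 1) values set relative to each gene's 2D mean, over 8327 genes with a mean of at least 5 FPKM. Nearest to ANKRD1 were YPEL2 (distance 0.26) and RASGEF1B (0.30), an exchange factor for Ras family proteins, while CYR61, the nearest member, ranked 904 (1.05). Nearest to YAP1 were FAM168A (0.13) and CDH13 (0.15), a cadherin without a cytoplasmic tail. AMOTL2, its nearest member, ranked 2356 (0.70), and WWTR1 ranked 7405 (1.59). Nearest to WWTR1 were CTBS (0.05), a lysosomal enzyme that breaks down chitobiose, and C2CD2 (0.08), while CYR61, the nearest member, ranked 1065 (0.46). These distances describe the same libraries that were compared and carry no test.

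Upstream genes of the pathway changed in both directions. Of 31 tested kinases, scaffolds and regulators, 13 were higher and 11 lower in 3D_E than in 2D. That is 41.9% and 35.5% of the list, near the 36.1% and 32.1% of all genes. The lower ones included the core kinases STK3, STK4 and LATS1 and the scaffold NF2. STK4 averaged 23.4 ± 3.51 FPKM in 3D_E and 46.6 ± 3.24 in 2D (log2 change -0.97; limma, adjusted p = 6.83e-05). LATS1 had a mean of 13.0 in 3D_E and 17.9 in 2D (-0.43). NF2, the tumour suppressor merlin, averaged 81.0 ± 18.5 FPKM in 3D_E and 116.8 ± 2.03 in 2D, a call that quantile normalization ended. The others that fell were WWC2, FRMD1, TAOK1, TAOK3, PTPN14, LIMD1 and SLMAP, the last with a log2 change of -0.93. The largest rises were those of RASSF2 and RASSF1, which bind the STK3 and STK4 kinases. RASSF2 averaged 18.9 ± 1.44 FPKM in 3D_E and 0.813 ± 0.212 in 2D, and met the filter of 1 FPKM in 3 libraries through 3D_L and 3D_E, so it is counted but given no p. RASSF1 averaged 134.5 ± 54.2 FPKM in 3D_E and 18.7 ± 2.14 in 2D (limma, adjusted p = 1.23e-05). WWC1, the scaffold KIBRA, rose by 1.88 on the log2 scale, and FRMD6, MAP4K3, MAP4K4, AMOT, DCHS1, DLG5, SCRIB, STRN and TNIK rose by between 0.31 and 1.26. SAV1, MOB1A, MAP4K5, STK25, WTIP, FAT1 and STRN3 were not called, with log2 changes between -0.62 and 0.40.

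In 3D_L against 2D, 3 of these 31 genes were higher and 5 lower, or 9.68% and 16.1%, where 20.3% and 16.2% of all genes were. RASSF2, RASSF1 and DLG5 rose and FRMD1, SLMAP, WWC2, TAOK1 and TAOK3 fell. The calls for TAOK1 and TAOK3 lay near the threshold (limma, adjusted p = 0.044 and 0.0404). RASSF2 averaged 6.28 ± 0.421 FPKM in 3D_L, and RASSF1 averaged 34.4 ± 5.98, a call lost in 7 of 18 alternatives. SLMAP, a scaffold of a phosphatase complex that acts against STK3 and STK4, averaged 40.6 ± 2.21 FPKM in 3D_L and 96.3 ± 5.08 in 2D (-1.23; limma, adjusted p = 7.6e-06). Between 3D_L and 3D_E, 6 were higher in 3D_L, namely STK4, SAV1, LATS1, NF2, STK25 and LIMD1, and 13 were lower (19.4% and 41.9%, against 27.2% and 26.4% of all genes). The median log2 change of the list was 0.01 in 3D_E against 2D, 0.02 in 3D_L against 2D and -0.07 in 3D_L against 3D_E, and that of all genes was 0.05, 0.03 and -0.01.

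Of 11 tested genes listed as TEAD3 and nuclear cofactors, 6 were higher and 2 lower in 3D_E than in 2D. The share that passed was 72.7%, near the 68.2% of all genes. Besides TEAD3, SNAI2, RUNX2, RUNX1, NCOA3 and ARID1A were higher and VGLL3 and TP73 lower, whereas VGLL4 and SMARCA4 were not called (log2 changes of -0.04 and 0.09). SNAI2, the transcription factor Slug, averaged 13.1 ± 1.23 FPKM in 3D_E and 0.62 ± 0.0361 in 2D. It reached 1 FPKM only in the 6 libraries of 3D_L and 3D_E and so entered the test through the groups where it is high. TP73 likewise stood below 1 FPKM in every 3D_E library. The counts include both, and no p is given for them. VGLL3, which competes with YAP and TAZ for TEADs, averaged 14.9 ± 0.651 in 3D_E and 22.6 ± 0.834 in 2D (-0.57; limma, adjusted p = 0.000118). In 3D_L 4 were higher than in 2D, SNAI2, RUNX2, RUNX1 and ARID1A, and VGLL3 and TP73 were lower (54.5% of the list, where 36.4% of all genes passed).

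Other genes counted as YAP and TAZ targets in human cells were split as well. Of 22 tested, 8 were higher and 9 lower in 3D_E than in 2D (PTPN14 is also among the upstream genes), with a median log2 change of -0.19 against 0.05 for all genes. These are 36.4% and 40.9% of the list, beside 36.1% and 32.1% of all genes. CCDC80, a matrix-associated protein, averaged 250.6 ± 83.1 FPKM in 3D_E and 18.7 ± 1.69 in 2D, and FJX1, 9.09 ± 0.8 in 3D_E and 1.82 ± 0.318 in 2D (log2 changes 3.62 and 1.84). LHFP stood at 1.48 ± 0.307 in 3D_E and at 0.0833 ± 0.0737 in 2D, so that it met the filter only in 3D_L and 3D_E and its place among the higher genes is no independent result. BIRC5, survivin, which also acts in mitosis, averaged 20.3 ± 1.86 in 3D_E and 103.9 ± 4.68 in 2D (-2.30), and the BMP-binding CRIM1, 10.3 ± 2.24 in 3D_E and 42.4 ± 4.94 in 2D (-1.96). The kinase NUAK2 and THBS1, thrombospondin-1, fell too, with log2 changes of -1.76 and -1.75. EDN1, endothelin-1, among the 9 lower genes, lost its call in 8 of 18 alternatives. In 3D_L against 2D 8 rose and 6 fell, or 36.4% and 27.3%, where 20.3% and 16.2% of all genes did. CCDC80 rose by 2.30 on the log2 scale and EDN1 by 0.83 (limma, adjusted p = 4.56e-05 and 0.000639), while NUAK2, CRIM1, THBS1 and BIRC5 fell, with log2 changes between -0.70 and -0.51. Between 3D_L and 3D_E, 9 were higher and 6 lower in 3D_L (40.9% and 27.3%, beside 27.2% and 26.4% of all genes), among the first BIRC5 (1.80) and CRIM1 (1.26).

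AP-1 factors bind beside TEADs at many enhancers. Of 8 tested, 5 were higher and 2 lower in 3D_E than in 2D, where 36.1% of all genes were higher and 32.1% lower. FOS averaged 37.6 ± 10.1 FPKM in 3D_E and 5.83 ± 1.31 in 2D (log2 change 2.48; limma, adjusted p = 2.72e-06), and JUND and ATF3 rose by 1.91 and 1.78. MAFK and FOSL2 fell, with log2 changes of -1.41 and -1.07. In 3D_L 4 were higher and 2 lower than in 2D, where 20.3% and 16.2% of all genes were, with FOS at 16.5 ± 2.08 FPKM. Between 3D_L and 3D_E, 2 were higher in 3D_L, FOSL2 and MAFK, and 5 were lower, where 27.2% and 26.4% of all genes were. One of these, BATF, lost its call in 10 of 18 alternatives.

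SRF and its actin-regulated cofactors MKL1 and MKL2, which share CTGF, CYR61 and ANKRD1 as targets with YAP and TAZ in mammalian cells, were listed together with their other targets. Of 20 tested genes of this list, 3 were higher and 14 lower in 3D_E than in 2D, and 1 was higher and 16 were lower in 3D_L than in 2D. The lower genes are 70.0% of the list in 3D_E and 80.0% in 3D_L, where 32.1% and 16.2% of all genes were lower. The higher ones are 15% and 5%, where 36.1% and 20.3% of all genes were higher. The median log2 change against 2D was -0.71 in 3D_L and -0.70 in 3D_E, beside 0.03 and 0.05 for all genes. Both comparisons rest on the same 2D libraries. The list was chosen with earlier results of these data known, so these shares and medians are a description, with no test. ACTA2, smooth muscle actin, whose reads can be shared with other actins, averaged 297.5 ± 20.7 FPKM in 3D_L and 306.2 ± 119.7 in 3D_E, against 1864 ± 110.3 in 2D. TAGLN, transgelin, stood at 38.8 ± 2.47 FPKM in 3D_L and 81.3 ± 13.7 in 3D_E, against 199.8 ± 11.1 in 2D. LMOD1 averaged 0.82 ± 0.226 FPKM in 3D_L and 3.37 ± 0.448 in 3D_E, against 13.5 ± 0.625 in 2D. It reached 1 FPKM in 7 of 9 libraries, among them all of 2D and 3D_E. LMOD1 thus entered the test through the groups where it is high, and is counted but given no p. TES and VCL, proteins of focal adhesions, fell against 2D, with log2 changes of -1.37 and -0.85 in 3D_L and of -2.18 and -1.88 in 3D_E. MKL2 was the gene that was higher in both 3D groups than in 2D (0.52 in 3D_L and 0.90 in 3D_E). FHL1, a LIM protein of muscle, instead had 13.4 ± 1.49 FPKM in 3D_E, against 2.13 ± 0.248 in 2D (log2 change 2.20; limma, adjusted p = 1.89e-07), and 1.27 ± 0.21 in 3D_L.

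**Figure D5:**
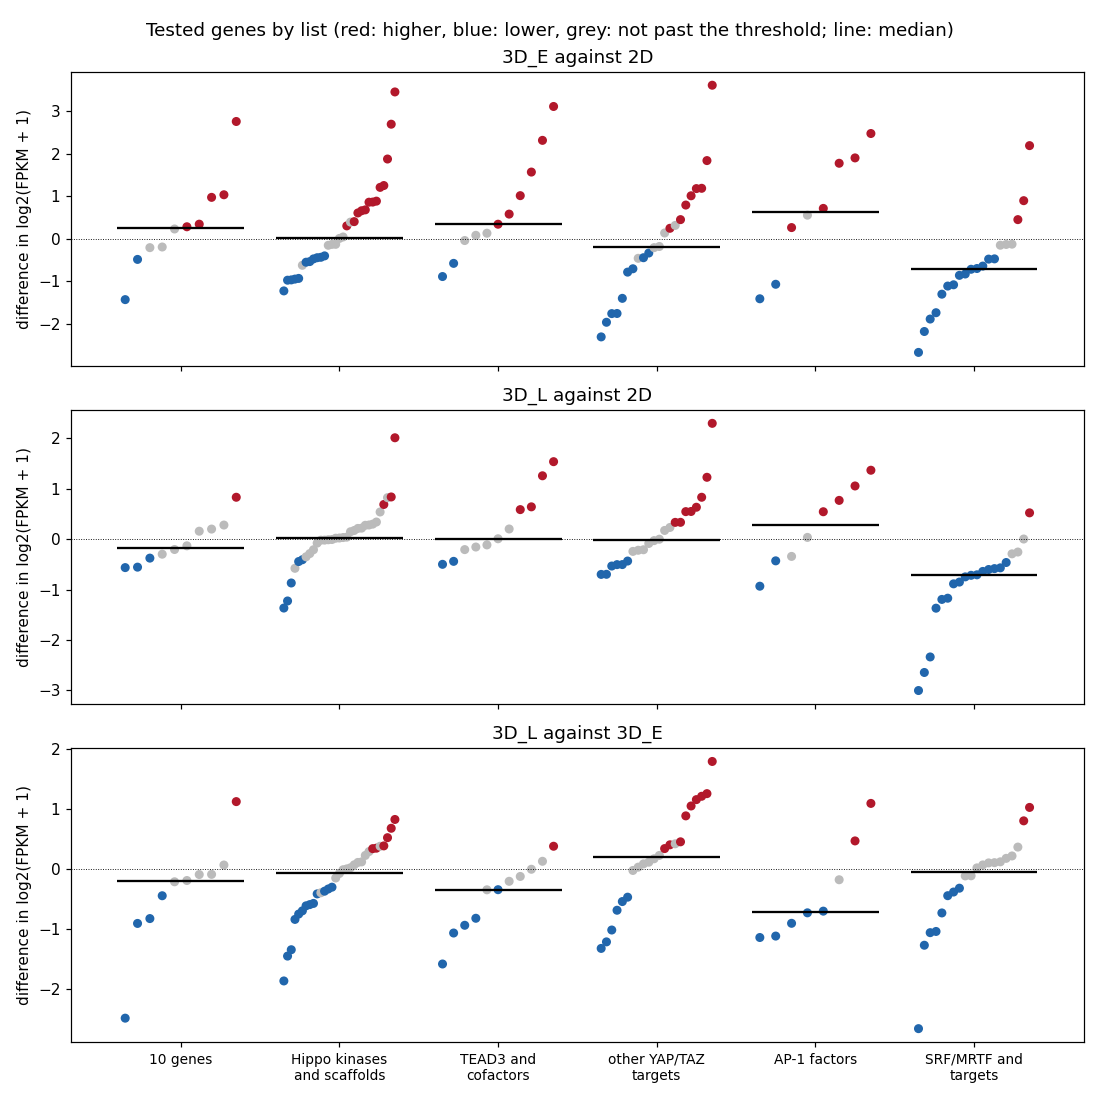
Difference in log2(FPKM + 1) of the tested genes of each list described above in the 3 comparisons, ordered by value within a list. Points are genes, red where higher, blue where lower and grey where not past the threshold, and lines are medians. The median of SRF, its cofactors and their targets was -0.70 in 3D_E and -0.71 in 3D_L against 2D. That of the 10 genes was 0.26 and -0.17. All lists were chosen with earlier results of these data known.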

How the data were processed

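Values were used in the unit the authors deposited, FPKM rounded to 2 decimals (per the file headers). The submitters' processing notes list HISAT2 2.0.5, R 3.4.2, DESeq2 and GRCg6a without saying what each was used for. The program behind the FPKM is, like the annotation, not given in the sources used here. Polyadenylated RNA was selected, per the labels' protocols. FPKM depends on all other genes of a library, and depth is unknown, so no counting interval is given.

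Of 94 columns, 82 without a name were not used, and 1 line that names no gene was left out. The 10436 genes that reached 1 FPKM in 3 libraries or more entered 1 fit of log2(FPKM + 1) over all 9 libraries in limma 3.58.1 under R 4.3.3 (moderated with a trend over mean level, on 6 residual degrees of freedom). Tests were 2-sided, and p-values were adjusted over all these genes after Benjamini and Hochberg. Differences on that scale understate the change of low genes. The fit, without the filter step, was tried on simulated log2 values for 3D_E against 2D only. Every group was given the same spread there, unlike in these libraries, so the effect of unequal spreads was not tested. Figures were drawn with matplotlib 3.10.9.

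The members and lists were chosen with earlier results of these data known. Named genes were all members, every tested gene of the upstream and cofactor lists, up to 4 called genes per other list and comparison with the largest change, and the 2 nearest genes of each strongly changed member. Genes named outside that rule were chosen after their values were seen. Of 202 list entries 176 were found, 4 by another symbol and 3 through the RefSeq symbol of the gene number (such as TYRO3 for AXL). Some listed genes are counted but not reported here by name, and 1 list is not reported here. Alternatives were the pseudocount (0.1 and 5), the filter (none and 5 FPKM), quantile and median scaling, the groups in the fit, a spread for each group, the replicate number as a block, and each library left out.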

Additional observations from a re-analysis of the deposited data

How the results depend on the processing

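Over 18 alternatives for each of the 30 member comparisons, 502 of 540 values kept their direction or stayed uncalled and kept their side of the threshold, 20 lost a call, 18 gained one, and no called value changed sign. For the other genes named, 160 of 4682 values lost a call and 68 gained one. Across the members and the other genes named (294 results, 5222 values), 58 values of 29 results changed sign while not called under either setting. The number of members called ranged, when 1 library was left out, from 5 to 9 in 3D_E against 2D, from 3 to 5 in 3D_L against 2D and from 5 to 7 in 3D_L against 3D_E. That of all genes ranged from 6151 to 7763, from 2581 to 5075 and from 4109 to 6912 in that order. With a spread for each group, 3D_L against 2D gave 7 members and 5839 genes, where 4 and 3803 were called with a shared spread. A fit of 3D_L and 2D alone gave 5 members and 5645 genes. In 3D_E against 2D a spread for each group gave fewer calls, 5 members and 6622 genes, where 7 and 7116 were called with a shared spread. In 3D_L against 3D_E it gave 5 members, as with a shared spread, and 4675 genes in place of 5591. The cause of these shifts was not tested. Quantile normalization turned the balance of all genes to 3328 higher and 3576 lower in 3D_E against 2D and to 1604 and 1976 in 3D_L against 2D, and median scaling to 3341 and 3780 and to 1729 and 2220. Same-numbered libraries of different groups deviated from their group means with correlations between -0.40 and 0.18, over 0.1 in 1 of 9 pairs. Of 9 libraries, 0 correlated best with their own number. Deviations from a mean of 3 libraries are not independent, so these correlations cannot show whether the numbers pair the samples. The fit with the replicate block called 6, 3 and 5 members and 6915, 3336 and 5281 genes. Depth is unknown, so how it limits the low genes cannot be stated.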
